A study of Mus musculus with 8 samples.

Results

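The genes described here are 9 markers of alternative macrophage activation in mouse epididymal fat: Retnla, Rnase2a, Ccl17, Ccl24, Cd163, Cd209f, Cd209g, Arg1 and Chil3. They are 9 of 18820 genes with a probe set of a single gene symbol, and each of the 9 had 1 such probe set. They were chosen with the difference between IL-37 transgenic and wild-type fat in view, so their values in that comparison are given as a description, without a test. They were put forward as genes raised in the transgenic fat. That holds for 7 of them as measured here, but Arg1 and Chil3 had overlapping groups.

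Expression was measured on 8 arrays of epididymal fat, a visceral pad attached to the epididymis. The 4 wild-type arrays (WT) came from male C57BL/6 mice, and the 4 transgenic arrays (IL37TG) from male mice of the same strain background that overexpress human IL-37, an anti-inflammatory member of the interleukin-1 family. A run-in of 2 weeks on low-fat chow (10% of its energy from fat) came first, and both groups then had 16 weeks of a diet that drew 45% of its energy from fat. All mice were therefore on the obesogenic diet, and no lean group was measured here. The wild-type mice were bought from a supplier, the labels do not describe the groups as littermates, and neither the promoter of the transgene nor the age of the mice is given in the sources used here. The human transgene had no probe set in the annotation used, so the labels could not be checked by it.

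Macrophages given the type 2 cytokines IL-4 or IL-13 signal through the IL-4 receptor alpha chain and the transcription factor STAT6. They then make secreted proteins such as RELMα (Retnla), the chitinase-like protein Ym1 (Chil3) and chemokines such as CCL17 and CCL24, the enzyme arginase-1 (Arg1), and surface lectins and scavenger receptors. In lean fat such cells are known for housekeeping and tissue repair, while in obese fat inflammatory macrophages gather around dying fat cells. CD163 and several CD209 lectins also mark macrophages that live in the tissue.

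The medians over all probe sets ran from 5.97 to 6.04 log2 units, which the normalisation sets. IL37TG replicate 4 stood apart, with an SD of differences over genes of 0.46 to 0.48 from the other transgenic arrays, which were 0.23 to 0.31 from each other. WT replicate 3 was 0.27 to 0.48 from the other wild-type arrays, which were 0.21 to 0.32 from each other. Over all genes 390 rose and 239 fell by limma, 148 and 83 without IL37TG replicate 4, and 520 and 668 without WT replicate 3. With so few of them, precision is limited by their number. Fat cell genes matched the tissue label, with Adipoq, Plin1, Fabp4 and Lep at means of 12.17 to 12.58 in both groups. Of 5 measured epididymis genes, 3 were under 4.49, the 25th percentile of gene means, on all arrays. Adam7 was above that level only in WT replicates 3 and 4, at 4.77 and 5.17. The mean of 11 general macrophage markers ran from 9.61 to 10.45 over the wild-type arrays, with WT replicate 3 lowest, and from 9.31 to 9.71 over the transgenic arrays. Array names hold a letter and a number, read here as plate row and column. Column 5 held 1 array of each group, column 7 held 2 wild-type and 1 transgenic, column 9 held 1 wild-type and 2 transgenic, and row G alone among the rows held both groups (2 wild-type and 1 transgenic). Row F held only wild-type arrays (2) and row H only transgenic arrays (3), so a row effect there cannot be told apart from genotype. A fit with the row as a block therefore takes its difference from row G. Its transgenic arm is IL37TG replicate 1 alone, so a call lost or kept there is no check of the result. Differences below are transgenic minus wild type, in log2 units. In a bulk sample, fewer cells of a type and less RNA per cell cannot be told apart.

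Retnla (chr16:48842609-48844461, GRCm38.p6) encodes RELMα, a secreted protein of the resistin family made by alternatively activated macrophages. Its level was 10.26, 10.58, 10.59 and 10.62 in wild-type replicates 1 to 4 and 11.93, 12.14, 11.70 and 11.61 in transgenic replicates 1 to 4. The lowest transgenic array stood 0.99 above the highest wild-type array. The means were 10.51 ± 0.17 and 11.84 ± 0.24 (SD, n = 4 per group), a difference of 1.33, or 2.52-fold. This was the 18th largest difference upward among the 18820 genes.

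Rnase2a (chr14:51255261-51256112) encodes a ribonuclease of the eosinophil-associated family that macrophages also make. The wild-type values were 3.97, 4.33, 4.0 and 3.60, all under the 25th percentile defined above, and the transgenic values were 9.59, 9.63, 7.32 and 8.18. The group means were 3.97 ± 0.30 and 8.68 ± 1.13 (SD, n = 4), and the difference as measured was 4.71, the 1st upward of all genes. The wild-type values lie at the dim end of the array, where differences are compressed, so the 4.71 may understate the difference, and no linear fold is given. Within the transgenic group the arrays spanned 2.31 log2 units, with replicates 1 and 2 high and replicate 3 lowest.

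The pair of chemokines followed. Ccl17 (chr8:94809380-94812038) encodes a ligand of CCR4, the receptor of Th2 and regulatory T cells, and is made by macrophages and dendritic cells. It read 5.97, 6.05, 5.98 and 6.02 in wild-type fat, the narrowest wild-type spread of the 9 genes (SD 0.04, n = 4). In transgenic fat it read 7.70, 8.46, 7.05 and 6.88, with a mean of 7.52 ± 0.72 (SD, n = 4). The difference was 1.52, or 2.86-fold. Ccl24 (chr5:135569935-135573123) encodes eotaxin-2, a ligand of the eosinophil receptor CCR3. Its values were 6.61, 6.61, 6.39 and 6.59 against 8.00, 7.56, 7.44 and 7.32, and the groups were 0.71 apart at their nearest arrays. The means were 6.55 ± 0.11 and 7.58 ± 0.30 (SD, n = 4), a difference of 1.03, or 2.05-fold.

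Cd163 (chr6:124304636-124330529) encodes the scavenger receptor for haptoglobin-haemoglobin complexes. It read 8.35, 8.15, 7.88 and 8.16 in wild-type and 8.66, 8.99, 9.10 and 8.86 in transgenic fat. The groups did not overlap, but their nearest arrays were 0.31 apart. The difference was 0.77, or 1.70-fold (8.13 ± 0.19 and 8.90 ± 0.19, SD, n = 4).

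Cd209f (chr8:4102784-4105838) and Cd209g (chr8:4134246-4137707) encode C-type lectins related to human DC-SIGN, a pathogen receptor that binds mannose-rich and fucose-containing glycans. The annotated genes are 28407 bases apart. Cd209f read 9.09, 8.93, 9.05 and 9.59 in wild-type and 10.03, 10.24, 10.00 and 9.97 in transgenic fat, a difference of 0.89, or 1.86-fold. Cd209g read 6.80, 6.88, 6.98 and 7.57 against 7.97, 8.07, 8.23 and 7.65, a difference of 0.92, or 1.90-fold. For both, WT replicate 4 was the highest wild-type array, and for Cd209g it came within 0.09 of the lowest transgenic array. Probes of related CD209 genes may read each other's RNA, which was not tested.

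Arg1 (chr10:24915207-24927470) encodes arginase-1, which turns arginine into ornithine. Its wild-type values were 5.83, 5.72, 5.43 and 5.64 and its transgenic values 5.44, 6.17, 6.56 and 4.96, so that 2 transgenic arrays lay above and 1 lay below all wild-type arrays. The means were 5.66 ± 0.17 and 5.78 ± 0.72 (SD, n = 4). Their difference of 0.13 was smaller than the spread within either group, and without IL37TG replicate 3 it was -0.13. Chil3 (chr3:106147554-106167564) encodes Ym1, a chitinase-like lectin. It read 3.90, 4.49, 3.57 and 3.79 against 3.57, 4.50, 3.53 and 3.05. These values lie at the dim end of the array and overlap, with a difference of -0.27 (3.94 ± 0.39 and 3.66 ± 0.61, SD, n = 4).

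**Figure D1:**
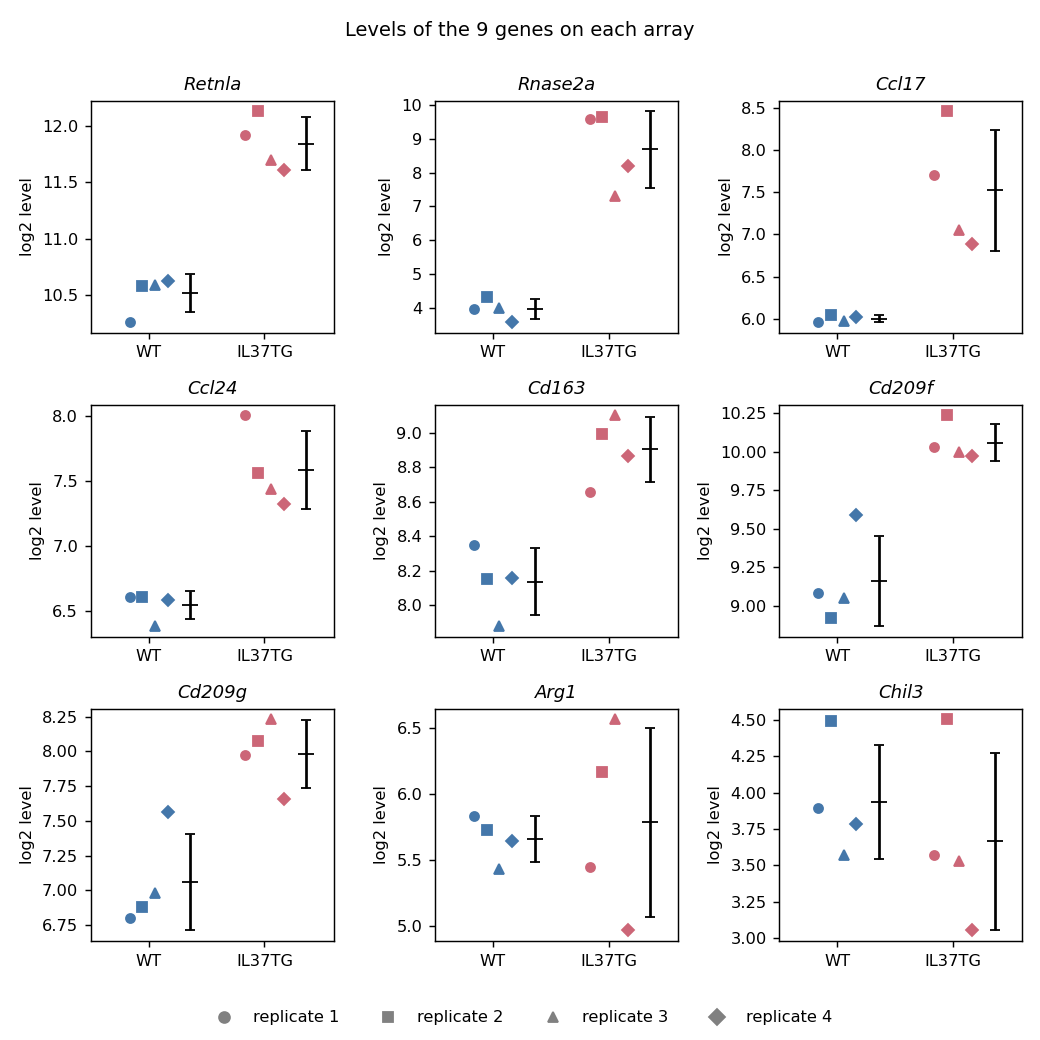
Log2 level of each of the 9 genes on the 4 wild-type (WT) and 4 transgenic (IL37TG) arrays. Points are arrays with the replicate shown by shape, and bars give the mean ± SD of each group on a separate vertical scale per gene. The groups stand apart for 7 genes and overlap for Arg1 and Chil3.

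In all, 7 of the 9 genes had groups that did not overlap, with the transgenic arrays higher. Of all 18820 genes, 8.24% had such a separation upward. That count follows from the way the genes were chosen and carries no further weight. Leaving out 1 array at a time, the differences ran from 1.23 to 1.41 for Retnla, 4.39 to 5.16 for Rnase2a, 1.21 to 1.73 for Ccl17 and 0.89 to 1.12 for Ccl24. They ran from 0.68 to 0.85 for Cd163, 0.82 to 1.04 for Cd209f and 0.84 to 1.09 for Cd209g. Without IL37TG replicate 4 the difference of Arg1 was 0.40 and that of Chil3 was -0.07, and without WT replicate 3 they were 0.05 and -0.39.

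Because the groups of the 7 genes did not overlap, the sign of any within-plate difference was fixed in advance, and only its size is informative. With row G counted, Retnla was the most even, at 1.55, 1.26 and 1.19 within columns 5, 7 and 9 and 1.32 in row G. Within the columns alone Cd209g was more even, at 1.09, 1.05 and 0.93, but row G gave 0.70. Cd209f stood at 1.18, 0.66 and 1.07 in the columns and 0.71 in row G. Ccl17 was the least even in proportion, at 2.48, 1.05 and 1.24 within the columns. For Rnase2a the columns gave 5.63, 3.54 and 4.56 and row G gave 5.79. For Ccl24 the columns gave 1.17, 0.84 and 1.05 and row G gave 1.52. Cd163 stood at 1.11, 0.85 and 0.61 in the columns and 0.64 in row G. Arg1, whose groups overlapped, differed by 0.74, 0.83 and -0.52 within columns, and Chil3 by 0.94, -0.31 and -1.18.

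**Figure D2:**
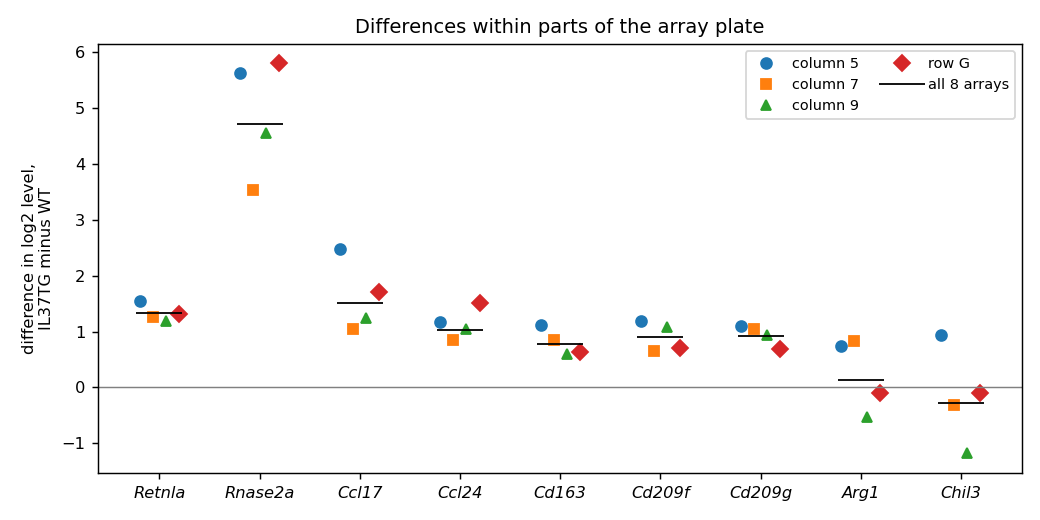
Difference in log2 level (IL37TG minus WT) of the 9 genes within plate columns 5, 7 and 9 and within row G, as read from the array names, with the difference over all 8 arrays as a line. Each point rests on 2 or 3 arrays. Retnla lies between 1.19 and 1.55, while Arg1 and Chil3 take both signs.

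The transgenic arrays were ordered alike for several of the genes. Replicates 1 and 2 held the 2 highest transgenic values for 6 of the 9 genes (Retnla, Rnase2a, Ccl17, Ccl24, Cd209f and Chil3), a pattern found for 27.0% of all genes, for 6 of 7 chitinase relatives, for 4 of 6 CD209 relatives and for 12 of 27 other alternative activation genes. Cd163, Cd209g and Arg1 instead had replicate 3 highest. IL37TG replicate 4 was lowest for Retnla, Ccl17, Ccl24, Cd209f, Cd209g, Arg1 and Chil3, a pattern whose share of all genes was not counted. That array, which stood apart, also had the lowest mean of general macrophage markers, and the part of either in this order was not tested.

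After each group's mean was subtracted, the 36 pairs of the 9 genes ranged in Pearson r from -0.42 (Rnase2a and Cd163) to 0.82 (Retnla and Ccl17) over the 8 arrays. Cd209f and Cd209g stood at 0.79, Ccl17 and Chil3 at 0.81 and Ccl17 and Rnase2a at 0.80. By the same measure the genes most like Retnla were Aldh3a2 (0.99), Slc19a2 (0.97) and Lysmd3 (0.97). Those most like Cd163 were Lmo2 (0.98), Epor and Slurp2, and those most like Cd209f were Ascl2 (0.97), Sptbn4 and Has1. Each is the top of 18819 genes over few arrays, all sharing the same arrays, and is given as a description.

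The start regions of the genes are shown because STAT6, the factor through which IL-4 and IL-13 act, binds a known short palindrome. RefSeq (GRCm38.p6) promoters were at hand for 7 of the 9 genes, Ccl24 and Arg1 being the others, and the 250 bases before the start were searched on both strands. The STAT6 type TTCNNNNGAA was in the windows of Retnla and Ccl17, 2 of 7, and in 5.85% of 32851 promoters. The other STAT type, TTCNNNGAA (7.02% of promoters), was in those of Ccl17 and Chil3. The C/EBP type TTGCNNAA (9.56%) was in those of Retnla and Rnase2a, the PU.1 type GAGGAAGT (2.44%) in that of Retnla, and the AP-1 type TGANTCA (6.75%) in those of Cd209f and Cd209g. The Cd163 window held none of these 5 patterns. A match is a description of letters and no evidence of binding. In the windows of Retnla (chr16:48842359-48842608, plus strand) and Ccl17 (chr8:94810203-94810452, plus strand, before a start that lies within the span of the gene given above), written 5′ to 3′, capitals mark the matches, none of which overlap.
Retnla: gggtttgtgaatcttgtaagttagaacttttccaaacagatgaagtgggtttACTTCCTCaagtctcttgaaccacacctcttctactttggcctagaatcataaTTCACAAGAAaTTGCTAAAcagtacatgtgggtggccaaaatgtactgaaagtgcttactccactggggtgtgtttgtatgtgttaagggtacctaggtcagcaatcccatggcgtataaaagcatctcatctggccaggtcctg
Ccl17: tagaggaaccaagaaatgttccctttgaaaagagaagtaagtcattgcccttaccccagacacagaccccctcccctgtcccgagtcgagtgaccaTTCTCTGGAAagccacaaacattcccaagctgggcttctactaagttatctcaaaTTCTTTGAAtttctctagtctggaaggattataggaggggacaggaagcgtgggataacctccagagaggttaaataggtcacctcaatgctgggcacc

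Counted back from the start, the STAT6 type match ran from -145 to -136 in Retnla, as TTCACAAGAA, and from -154 to -145 in Ccl17, as TTCTCTGGAA. In Retnla a C/EBP type match followed at -134 to -127, and a PU.1 type match on the other strand lay at -198 to -191. In Ccl17 the other STAT type lay at -99 to -91. The letters of the STAT6 palindrome were absent from the windows of Rnase2a, Cd163, Cd209f, Cd209g and Chil3. Because the genes were chosen on their difference, the presence of the letters cannot be weighed against it.

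The windows of Cd209f (chr8:4105765-4106014, minus strand) and Cd209g (chr8:4134486-4134735, plus strand) are shown to compare the gene pair, with the AP-1 type match in capitals. Both windows lie before a start that is within the span of the gene given above.
Cd209f: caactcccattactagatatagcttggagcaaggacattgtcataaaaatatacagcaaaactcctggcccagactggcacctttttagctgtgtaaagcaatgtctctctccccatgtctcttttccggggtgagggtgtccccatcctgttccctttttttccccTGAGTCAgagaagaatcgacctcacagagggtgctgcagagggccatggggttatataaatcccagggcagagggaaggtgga
Cd209g: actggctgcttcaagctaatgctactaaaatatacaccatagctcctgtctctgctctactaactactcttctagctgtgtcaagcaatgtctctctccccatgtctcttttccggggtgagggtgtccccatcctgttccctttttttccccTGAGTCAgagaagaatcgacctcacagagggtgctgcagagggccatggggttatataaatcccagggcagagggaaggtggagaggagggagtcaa
These windows were 78.1% identical over their alignment and shared an unbroken run of 154 bases, which includes the AP-1 type match. By the same alignment, all other pairs among the 7 windows were 45.1% to 54.1% identical.

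The rest of the CD209 family leaned the same way as Cd209f and Cd209g, without a member past the threshold. All 6 measured relatives (Cd209a, Cd209b, Cd209c, Cd209d, Cd209e and the neighbouring lectin Clec4g) had a positive difference, with a median of 0.61, where the median over all genes was 0.02. A count of this kind was not particular to the family. The 6 mesothelial markers were all positive too (median 0.35), as were 8 of 9 genes of type 2 cytokines and their cells (median 0.16). Cd209a, found on dendritic cells and macrophages, read 8.04, 8.58, 8.46 and 9.12 in wild-type and 9.61, 9.75, 8.92 and 9.54 in transgenic fat (difference 0.90, SE 0.25, limma adjusted p = 0.0894). Its groups overlapped through WT replicate 4 and IL37TG replicate 3. Cd209e differed by 0.78 (SE 0.20, limma adjusted p = 0.0773) and was the only 1 of the 6 whose groups did not overlap. Cd209d differed by 0.76, Cd209c by 0.46, Cd209b by 0.40 and Clec4g by 0.31. WT replicate 4 was the highest wild-type array for Cd209a, Cd209b, Cd209c and Cd209d, as for Cd209f and Cd209g. IL37TG replicate 3 was the lowest transgenic array for Cd209a to Cd209e, while for Cd209f and Cd209g it was replicate 4.

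**Figure D3:**
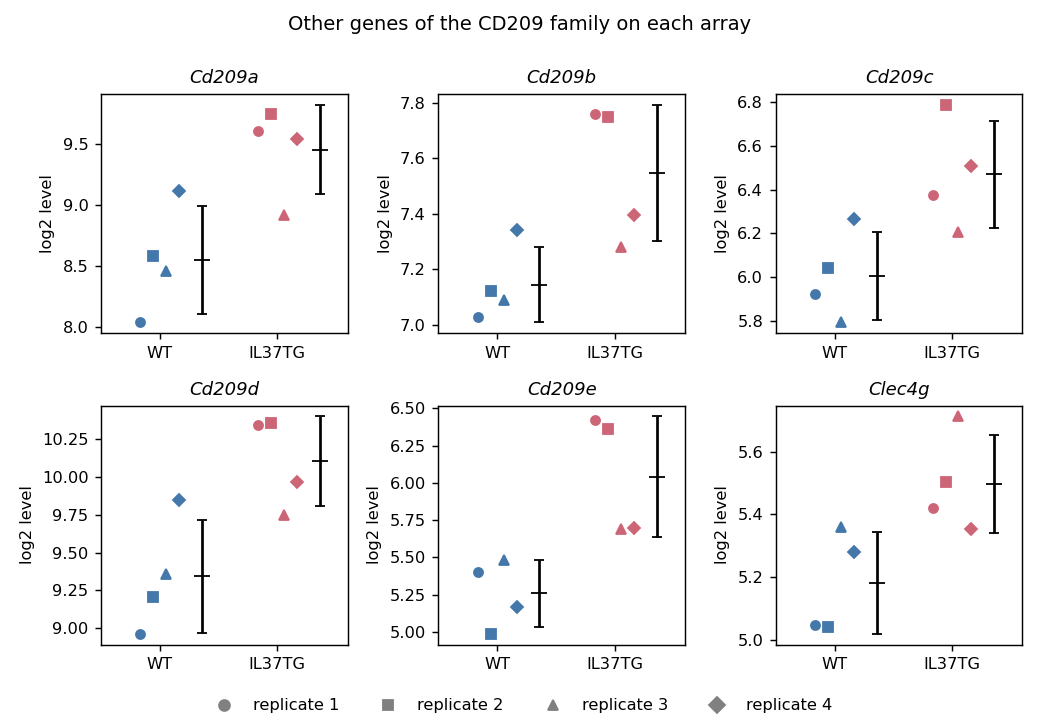
Log2 level of the 6 other measured genes of the CD209 family on each array, drawn as for the 9 genes (points are arrays, bars are mean ± SD, n = 4 per group, with a separate vertical scale per gene). All 6 group means are higher in transgenic fat, and the groups overlap for 5 of the 6.

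Relatives of the other genes had no call. Of the resistin family, Retn, the resistin gene of the fat cell, differed by 0.30 (limma adjusted p = 0.120), Retnlg by 0.88 (adjusted p = 0.282) and Retnlb by 0.06, and Retnlb lay below the 25th percentile on all arrays. Of 9 listed relatives of Rnase2a only 4 were measured, and Ear1, Ear2 and Ear10 were among those without a probe set of a single gene symbol. None of the 4 passed, and 2 of them, Rnase2b and Ear14, lay below the 25th percentile on all arrays. Rnase6, a macrophage ribonuclease, differed by 0.43 (SE 0.12, limma adjusted p = 0.0985), and Rnase2b by -0.37 (limma adjusted p = 0.199). The 7 chitinase relatives of Chil3 also had no call, with a median difference of -0.07. Chil4, the gene of Ym2, differed by -0.07 and lay below the 25th percentile throughout.

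The receptors and fellow ligands of the chemokines did not pass either. Ccr4, the receptor of CCL17, differed by 0.33 (limma adjusted p = 0.135) and Ccl22, the other CCR4 ligand, by 0.30 (adjusted p = 0.557). Ccl22 read 6.04, 5.90, 5.96 and 6.05 in wild-type fat and 6.59, 6.95, 5.97 and 5.62 in transgenic fat, so that replicates 1 and 2 were again the high transgenic arrays. Ccr3, the receptor of CCL24, differed by -0.20 (limma adjusted p = 0.807), and Ccl11, the gene of eotaxin-1, by 0.38 (adjusted p = 0.369). Other ligands were lower on average, Ccl7 by -0.76, Ccl8 by -0.61 and Ccl5 by -0.35, the last with groups that did not overlap. Of the 8 measured genes 4 had a positive difference, and the median was -0.01.

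In the haemoglobin route in which CD163 acts, 2 of 11 measured genes fell and none rose by limma (Benjamini-Hochberg adjusted p at most 0.05 over all genes), where 1.27% of all genes fell. Hmox1, the haem oxygenase that breaks down the haem taken up, read 9.78, 9.77, 9.48 and 9.57 in wild-type and 8.91, 8.80, 8.89 and 8.88 in transgenic fat (difference -0.78, SE 0.08, limma adjusted p = 0.00535). The transgenic values lay within a narrow band below every wild-type array, and the call held whichever array was left out. It held with the plate column as a block, while with the row, and so from row G, the value was -0.61 (limma adjusted p = 0.0818). Hp, the haptoglobin gene, fell by 0.52 (SE 0.10, limma adjusted p = 0.0346). On leaving out 1 array the call held only without IL37TG replicate 3 or WT replicate 3, and it ended with the plate column as a block at a difference of -0.46 (adjusted p = 0.0694). With the row as a block Hp stood at -0.63 (limma adjusted p = 0.266). The iron storage gene Fth1 (0.04) and the iron exporter Slc40a1 (-0.15) did not pass. Without WT replicate 3 Lrp1, the receptor for haem bound to haemopexin, also passed, at -0.34. Its wild-type minimum was on that array, so the widening was fixed by the choice.

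Genes that handle arginine beside Arg1 had no call among 10 measured. Nos2, the nitric oxide synthase that competes for arginine, differed by 0.09 (limma adjusted p = 0.677), and the transporter Slc7a2 by 0.11. The polyamine enzymes Odc1 (-0.21) and Sms (-0.49, limma adjusted p = 0.115) did not pass.

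Other genes known to rise with IL-4 or IL-13 in mouse macrophages, or used to mark alternative activation, were set beside the 9. Of 27 measured genes, none passed in either direction by limma at the adjusted threshold, where 3.34% of all genes passed. At an unadjusted limma p of at most 0.05 there were 9 of the 27, against 20.6% of all genes. Of those 9, Mgl2 and Irf4 were higher, and Mrc1, Clec7a, Tgm2, Msr1, Egr2, Igf1 and Mmp12 were lower. The median difference of the 27 was -0.06, and 11 of them had a positive difference. Mgl2, the CD301b lectin, was nearest upward, at 8.52 ± 0.34 and 9.40 ± 0.46 (SD, n = 4; difference 0.87, SE 0.25, limma adjusted p = 0.0984). Its values were 8.19, 8.89, 8.28 and 8.73 against 9.72, 9.86, 8.93 and 9.08. Irf4, a transcription factor of alternative activation, differed by 0.31 (adjusted p = 0.139). Against these stood Msr1, a scavenger receptor (-1.01, SE 0.27, limma adjusted p = 0.0801), Egr2 (-1.24, adjusted p = 0.128) and Mrc1, the mannose receptor CD206 (-0.37, adjusted p = 0.124). Without WT replicate 3, Mrc1, Clec7a, Msr1 and Egr2 passed as lower, at -0.48, -0.94, -1.26 and -1.55. Each had its wild-type minimum on that array, so that removal could only widen them. With no array left out, Mrc1 and Msr1 also passed as lower with array weights. With the filter at the median gene, Msr1 passed as lower and Mgl2 as higher.

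Of the cytokines and receptors upstream of these genes the decoy receptor was lower. Of 12 measured genes of IL-4 and IL-13 signalling 1 fell, where 1.27% of all genes fell. It was Il13ra2, which binds IL-13 without passing on the signal as the main receptor does. It read 6.70, 6.60, 6.80 and 7.19 in wild-type and 4.71, 4.78, 5.55 and 4.90 in transgenic fat (difference -1.84, SE 0.20, limma adjusted p = 0.00579), and the call held whichever array was left out and with the plate column as a block. With the row as a block the difference was larger, at -2.29, and the adjusted p 0.0555 by limma. Stat6 differed by -0.01, Il4ra by -0.16 and Il13ra1 by -0.30 (limma adjusted p = 0.0953). Irs2 differed by 0.46 (limma adjusted p = 0.141), with every transgenic array above the wild-type arrays, and Cish by 0.66 (adjusted p = 0.287). Of the 12 genes 6 had a positive difference. Il4 read 3.88 to 4.19 in wild-type and 4.04 to 4.57 in transgenic fat, and Il13 5.35 to 5.59 and 5.38 to 5.59. Of 9 measured genes of type 2 cytokines and their cells none passed, with Il5 (0.20, limma adjusted p = 0.166) and Il33 (0.24, adjusted p = 0.718) among them. A positive difference was found for 8 of the 9, with a median of 0.16. Il5 lay below the 25th percentile on all arrays and Il4 on every wild-type array, so dim signal limits both.

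Classical activation genes, which macrophages make when given bacterial lipopolysaccharide or interferon-gamma, had 1 call among 15. Ptgs2, the inducible cyclooxygenase, rose by 0.68 (SE 0.14, limma adjusted p = 0.0440), where 2.07% of all genes rose. The call held on leaving out IL37TG replicate 1 (0.78) but no other array. It ended with the plate column as a block at a difference of 0.72, and with the row as a block the difference was 0.28. Cxcl10 differed by -1.07 (limma adjusted p = 0.0722), Tnf by -0.43 (adjusted p = 0.183) and Nos2 by 0.09. Without IL37TG replicate 1, Cxcl10 passed too (-1.35), and Tnf passed without WT replicate 3, at -0.56. The array left out held the highest transgenic value of Cxcl10 and the lowest wild-type value of Tnf, so each removal could only widen the fall. With no array left out, Cxcl10 also passed with the filter at the median gene (-1.07, limma adjusted p = 0.031).

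**Figure D4:**
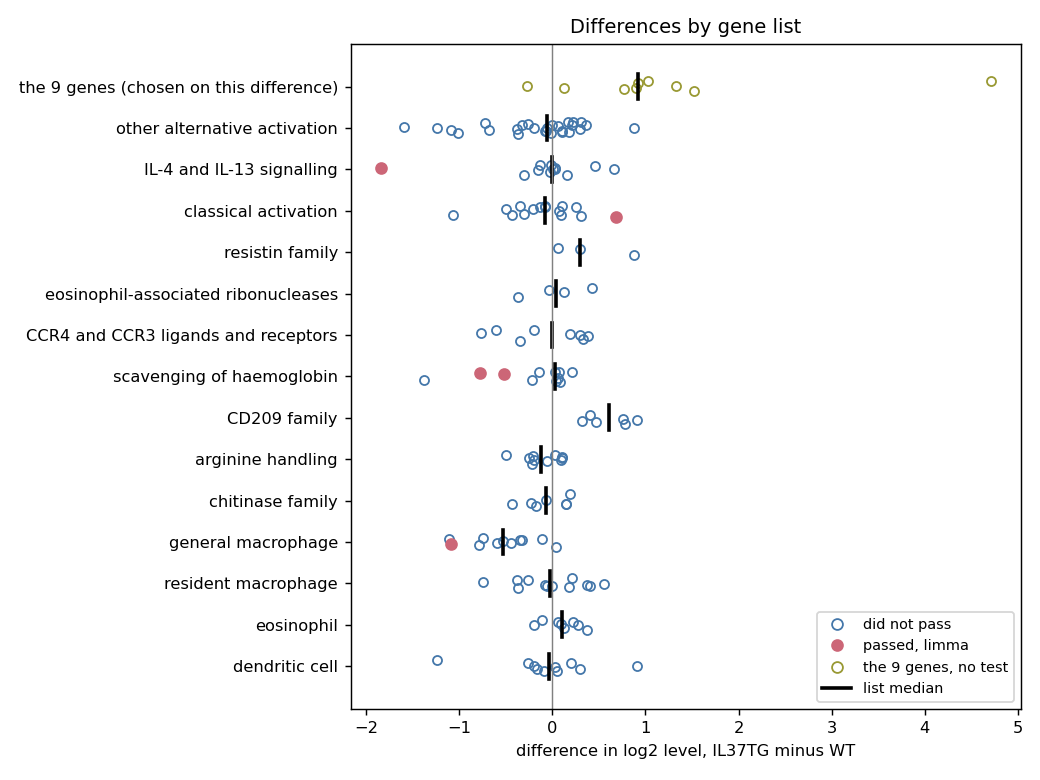
Difference in log2 level (IL37TG minus WT) of each measured gene in 14 lists and of the 9 genes, 1 point per gene and a line at each list's median. Filled points passed limma over all genes, and the 9 genes carry no test because they were chosen on this difference. Among the lists drawn, the CD209 family (median 0.61) and the resistin family (median 0.30) lie wholly above 0. The other alternative activation genes have a median of -0.06.

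The markers of cells that could carry these genes were set beside them. Eosinophils make ribonucleases of the Rnase2a family, and of 8 measured eosinophil markers none passed, although Gata1 did without IL37TG replicate 1 (0.33), its transgenic minimum. Their mean ran from 4.18 to 4.52 over the wild-type and from 4.12 to 4.61 over the transgenic arrays, and Epx, Prg2 and Gata1 lay below the 25th percentile on all arrays. Of 11 general macrophage markers Fcgr1 fell (-1.09, limma adjusted p = 0.0469) and none rose, where 1.27% of all genes fell. The median difference of the 11 was -0.53. On leaving out 1 array the call of Fcgr1 held only without WT replicate 3 (-1.30), its wild-type minimum. It ended with median centring (-1.08, limma adjusted p = 0.0511) and with the plate column as a block (-1.04, adjusted p = 0.101), and with the row as a block the value was -0.70. Without WT replicate 3, 8 of the 11 passed, all lower, each having its wild-type minimum on that array. With no array left out, 4 passed as lower with array weights: Fcgr1 (-1.15), Cd68 (-1.10), C1qc (-0.75) and C1qb (-0.54). The same 4 passed as lower with the filter at the median gene. Of 12 resident macrophage markers none passed (median difference -0.03). Timd4, a receptor for dying cells on resident macrophages, was nearest upward (0.55, limma adjusted p = 0.0942). Vsig4, a complement receptor, differed by -0.74 (limma adjusted p = 0.118), also with groups that did not overlap, and the transcription factor Maf by -0.26 (adjusted p = 0.105). Resident marker means ran from 8.96 to 9.50 and from 9.11 to 9.36.

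Dendritic cells, which also make CCL17, had no call among 10 markers. Their transcription factor Zbtb46 read 6.93, 6.96, 6.92 and 6.87 against 7.13, 7.17, 7.13 and 7.07 (difference 0.20, SE 0.05, limma adjusted p = 0.0656). Zbtb46 passed with array weights (adjusted p = 0.0326), either filter on dim genes (0.0479 and 0.0263) and a second quantile normalisation (0.0461). Ccr7, the receptor of migrating dendritic cells, differed by -0.09 and Itgax by -1.23 (limma adjusted p = 0.138), which passed without WT replicate 3, its wild-type minimum (-1.60). List means ran from 7.12 to 7.46 and from 6.94 to 7.49. The median difference of 9 neutrophil markers was -0.15, and 3 of them were positive, among them Retnlg (0.88) and Elane (0.34). Of the 9, S100a8 (-1.51, limma adjusted p = 0.0280) and Csf3r (-0.46, adjusted p = 0.0201) fell, where 1.27% of all genes fell. On leaving out 1 array both calls held without IL37TG replicate 3 or WT replicate 3, and that of Csf3r also without IL37TG replicate 1. Both ended with the plate column as a block, at -1.37 for S100a8 (limma adjusted p = 0.0834) and -0.47 for Csf3r (adjusted p = 0.0579), and with the row as a block they stood at -2.27 and -0.26. Of 7 adipocyte markers Adipoq rose (0.30, limma adjusted p = 0.0309), where 2.07% of all genes rose. The call held on leaving out WT replicate 3 (0.34) but no other array. It ended with the plate column as a block at the same 0.30 (limma adjusted p = 0.0942), and with the row as a block Adipoq stood at 0.25. None of 8 large peritoneal macrophage, 7 mast cell, 8 B and T cell, 6 mesothelial or 5 epididymis markers passed, although Cd2 of T cells did without WT replicate 3 (0.68), its wild-type maximum, and in 4 other alternatives (0.57 to 0.63). Of the large peritoneal markers, Gata6 passed with the filter at the median gene (0.46, limma adjusted p = 0.0296). Timd4 passed with array weights (0.66, limma adjusted p = 0.0326). The part of cell makeup in the levels of the 9 genes was not tested.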

How the data were processed

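Gene expression was measured on 8 single-colour arrays, labelled with biotin. The deposited values are log2 expression per probe set, made by the authors with RMA per the submitters' processing notes; its settings, version and annotation are not given in the sources used here. RMA equalises arrays by quantiles, so a shift of most genes would not be seen, and dim probe sets understate differences. Of 35556 probe sets, 21218 had 1 gene symbol, 1881 several and 12457 none. Symbols were updated through Entrez identifiers (assembly GRCm38.p6) for 21185. Each gene was represented by its brightest probe set (mean of all 8 arrays), giving 18820 genes.

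Groups came from the sample titles. limma 3.58.1 in R 4.3.3 was fitted over all genes (lmFit, eBayes, two-sided, no filter, Benjamini-Hochberg at 0.05). Only this fit was tested on simulated data, which had independent noise and no array or plate effects. The labels do not say that arrays came from separate mice, so a p-value reflects the spread of these samples, which may be technical. The members and lists were chosen with earlier results of these data known. Named are the 9 genes, the 3 genes most like each (some are printed), any relative in a family list and, of each other list, genes past the threshold and up to 4 with the lowest p. Irf4, Clec7a, Tgm2, Igf1, Mmp12, Stat6, Il4, Il13 and Il4ra fall outside that rule and were chosen after their values were seen. The same holds for Tnf, Il33, Ccr7, Epx, Prg2, Fabp4 and Lep. Alternatives comprised quantile normalisation anew, median centring, 2 filters on dim genes, probe set means, array weights, a trended robust prior, 3 blocks and leaving out arrays. Biopython 1.88 aligned the promoters, and matplotlib 3.10.9 (Python 3.11.15) drew the figures.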

Additional observations from a re-analysis of the deposited data

Results flagged for a closer look

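Of 226 groups of 4 arrays examined (113 genes in each genotype), 10 held a single array well away from its group, which is 4.42%, and about 1 in 20 is what chance flags. Among the 9 genes these were Retnla in WT replicate 1 (10.26, the next array being at 10.58) and Ccl24 in WT replicate 3 (6.39, the next at 6.59), both low. Mrc1 was also low in WT replicate 3 (10.29), and Slc7a2 in WT replicate 2 (6.63). Cxcl10 was high in WT replicate 4 (8.34). In the transgenic group Hpx, the haemopexin gene, was high in replicate 3 (9.17, against 6.12 for the next array), as was Adam7 (4.13). Blvrb was high in replicate 4 (10.41), Csf3r was high in replicate 1 (5.88), and Il5 was low in replicate 4 (3.58).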

How the results depend on the processing

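Over all genes 390 rose and 239 fell. These counts were 724 and 539 with array weights, 741 and 554 among genes no dimmer than the median gene, 44 and 28 blocking on plate column, 10 and 60 blocking on plate row, and 50 to 520 and 32 to 668 on leaving out 1 array. With the replicate block they were 40 and 53. The replicate numbers share no stated source, and same-numbered arrays deviated together at r = 0.06 to 0.10 over genes, so the numbers were not taken as pairs. None of the 7 genes with separate groups changed sign, which their separation fixed, and with the row block, which rests on 1 transgenic against 2 wild-type arrays, Rnase2a stood at 5.79 and Ccl24 at 1.52. Of the list counts, other alternative activation genes had 2 calls with array weights, Mrc1 (-0.41) and Msr1 (-1.02), both lower. With the filter at the median gene they had 2, Msr1 lower (-1.01) and Mgl2 higher (0.87). On leaving out 1 array they had 0 to 4. IL-4 and IL-13 signalling had 0 with the row block. Classical activation had 0 with each block, and 0 to 2 on leaving out 1 array. Haemoglobin scavenging had 1 with the column or replicate block, 0 with the row block and 1 to 3 on leaving out 1 array. With array weights the resistin, CCR4 and CCR3, and CD209 lists had 1 each, and with the filter at the median gene the ribonucleases had 1 and the CD209 family 2. The replicate block ended the calls of Ptgs2, Hp, Fcgr1, Csf3r and Adipoq without changing their differences. The causes were not tested. Dim signal limits Chil3 in both groups and Rnase2a in wild-type fat.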

Other observations

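Genes near the 9 were examined, and those named were chosen after their values were seen. Of 140 measured genes within 500 kb of any of them, counted once, 4 rose and 2 fell by limma, which is near the 2.07% and 1.27% of all genes. The 4 were Akap7 beside Arg1 (difference 0.58, limma adjusted p = 0.00535), Rprl3 near Cd209f and Cd209g (0.48, adjusted p = 0.0404), Dtx2 near Ccl24 (0.40, adjusted p = 0.0440) and Polr2c near Ccl17 (0.36, adjusted p = 0.0280). The 2 were Cip2a near Retnla (-0.83, adjusted p = 0.0307) and Nup93 near Ccl17 (-0.38, adjusted p = 0.0386). Akap7, an anchoring protein gene for protein kinase A, was thus called next to Arg1, which was not higher. The 9 genes lie on 7 chromosomes, 3 of them on chromosome 8.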
